A study of Equus caballus with 11 samples.

Results

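The 681 CpGs described here are the most deeply read 1% of the 68147 CpGs on chromosomes 1 to 31 that had 10 or more reads, both strands summed, in all 11 libraries (the common CpGs). Depth was expressed as relative depth, the reads at a CpG divided by the library's median over the common CpGs, and a CpG was kept when its median relative depth over the 11 libraries was among the highest 1%. They are called deep CpGs below. Read depth alone chose them, so their depth is given as a description without tests, while their methylation levels took no part in the choice. The lowest values inside the threshold were 6.10 at chr12:32920124 and at chr12:32920161, and the highest outside were 6.09 at chr8:1304499 and 6.07 at chr9:3582771. Coordinates are in EquCab3.0.

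The libraries, made by reduced representation bisulfite sequencing (RRBS), came from the left ventricle of the heart (4 libraries), the caudal lobe of the right lung (4 libraries) and the right lobe of the liver (3 libraries, horse 3 not analysed here) of healthy cold-blooded stallions aged 1 to 2 years with no treatment. They measure the methylation of single CpGs. The same horse number marks the same animal in the labels. A file with gene annotation of this build was not used here, so neither genes nor tissue markers were looked up. Library medians over the common CpGs were 15 to 50 reads, and a deep CpG had a median of 283 reads per library, from 11 to 28972, against 32 over all common CpGs.

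RRBS cuts DNA at CCGG sites and reads a CpG-rich part of the genome from short fragments, so a genomic position is normally read about as often as other fragments of like size. Segments that the animal's genome holds in many copies but the assembly holds once, such as satellite arrays, ribosomal DNA and recent duplications, collect the reads of all copies at one address. Chromosomes also carry inserted copies of mitochondrial DNA, and cells hold many mitochondrial genomes, which are especially abundant in cardiac muscle. A methylation level at such an address is then an average over copies as well as over cells.

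One library went against its label in part. The library labelled heart of horse 1 shared the levels of lung and liver of horse 1 at some CpGs and not at others. At 18 CpGs where lung and liver of horse 2 were above 75% and those of horse 1 below 30%, its median level was 81.8%. At 18 CpGs with horse 4 above 75% and horse 1 below 30%, it was 62.4%. At the same sets, heart of horse 2 and of horse 4 had 92.1% and 93.7%, as their own lung and liver did. The depth at mitochondrial position 12862 relative to position 12851 was 1.03 in this library, 1.03 in heart and 1.11 in lung of horse 3, and 5.93 to 6.73 in all 8 other libraries, including lung (6.73) and liver (6.30) of horse 1. In deviations from the tissue mean it correlated with lung and liver of horse 1 at 0.0512 and 0.0519, and with lung and liver of other horses at -0.0379 to 0.00431, while the other same-horse values were 0.154 to 0.251. Over all pairs of different horses the values ran from -0.146 to 0.0595, a range that includes 0.0512 and 0.0519. At chr31:246-370 this library was low together with lung and liver of horse 1, at 73.2%, 71.7% and 69.6% against 78.3% or more in all others. It is written below as the library labelled heart of horse 1, and results that rest on it are also given without it.

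The deep CpGs were clustered. Joined at gaps of up to 1000 bases they formed 161 loci, of which 36 held 1 deep CpG, 33 held 2 and 92 held 3 or more. The 8 largest loci held 187 of them (27.5%). A locus held 4.23 deep CpGs on average, against 2.37 CpGs for loci formed in the same way from all common CpGs. In 130 of the 161 loci every common CpG between the first and the last deep CpG was itself deep. This count includes the 36 loci of 1 deep CpG, where it holds by definition. Within 100 bases a deep CpG had a median of 10 other listed CpGs, against 3 for all common CpGs, and both strands were read at 47.3% of deep CpGs against 5.81% of all. A second strand adds reads to the sum. When sites were chosen on the deeper strand alone, 558 of the 681 were chosen again.

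Their positions on the chromosomes were uneven. Chromosome 13 held 160 deep CpGs, which is 4.95% of its common CpGs, chromosome 1 held 105 (1.87%), chromosome 12 held 88 (3.79%) and chromosome 21 held 42 (2.97%), where the rule keeps 1% overall. The first megabase from the lowest listed position of a chromosome held 80 deep CpGs, or 11.7%, against 3.59% of all common CpGs, and all 80 were on chromosomes 14 to 31. The last megabase held 1 deep CpG (0.147%) against 2.06% of all common CpGs. In the horse, chromosomes 14 to 31 have their centromere at one end, a position where satellite arrays are usual.

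Copy number was not measured, and the name multi-copy was checked only through the spacing of CpGs. For each deep CpG in a run of 6 consecutive listed CpGs within 300 bases, the distances between the CpGs were looked up elsewhere in the listed genome in either direction. The same distances were found at another place for 416 of 628 such deep CpGs (66.2%), against 28.0% of 37634 common CpGs. With 5 CpGs in a run the shares were 84.3% and 49.4%, and with 8 they were 31.9% and 16.6%. Recurrence was 14.6% to 22.8% in the 13 lowest of 20 equal bins of depth and 69.6% in the highest. CpG density was higher at deep CpGs than over all common CpGs. Dense runs have short distances that may recur more easily, and the part of density in the difference was not tested.

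**Figure D1:**
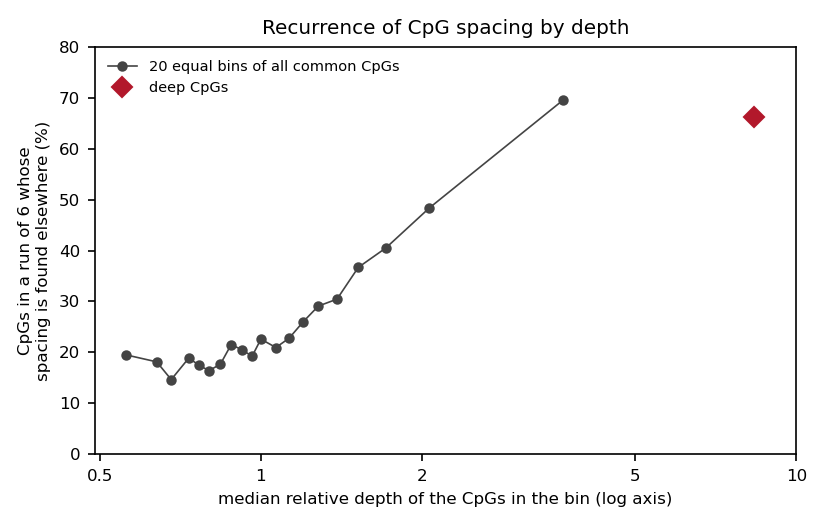
Share of CpGs in a run of 6 whose spacing was found at another place (y axis, percent) against the median relative depth of the CpGs (x axis, log scale), for 20 equal bins of the 68147 common CpGs (grey) and for the 681 deep CpGs (red). Shares stayed at or below 22.8% in the first 13 bins and reached 69.6% in the deepest bin and 66.2% at deep CpGs.

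Loci that shared a spacing formed 12 families with 49 loci and 234 deep CpGs, 8 of the families being pairs. The depths of the members of a pair were close in some pairs and not in others. The loci at chr7:54557784-54558411 and chr7:54738182-54738805, 11 deep CpGs each, had relative depths of 6.66 to 10.01 and 6.32 to 10.1. The pair at chr13:25947630-25948603 (50 deep CpGs) and chr13:26386136-26386389 (12) ranged from 4.16 to 13.7 and from 3.73 to 11.2, with the lowest value of both in the library labelled heart of horse 1. The single CpGs at chr5:65241131 and chr13:12832586 differed in both directions, at 6.17 and 3.78 in heart, 5.26 and 2.74 in lung and 5.58 and 3.06 in liver of horse 4, but 4.4 and 6.27 in liver of horse 2. The largest family held 22 loci and 63 deep CpGs on chromosomes 1, 2, 8, 10, 20, 26 and 28, with 13 of the loci inside 1 Mb of the listed end of their chromosome.

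Methylation at deep CpGs was mostly high, as at the other common CpGs. A mean level of 80% or more was found at 380 deep CpGs (55.8%, against 52.3% of all common CpGs), a level between 20% and 80% at 236 (34.7% against 34.8%), and a level of 20% or less at 65 (9.54% against 12.9%). The spread between libraries was narrower than elsewhere, with a median range over the 11 libraries of 13.8 percentage points, or 11.6 without the library labelled heart of horse 1, against 23.3 and 22.6 points over all common CpGs. Deeper sites have less counting error, which narrows this range in itself, and its part was not tested. The unweighted mean level over the 681 CpGs was 64.3%, 73.2%, 70.04% and 71.2% in heart of horses 1 to 4, 71.7%, 74.6%, 71.1% and 73.0% in lung, and 71.3%, 73.6% and 72.4% in liver of horses 1, 2 and 4. The library labelled heart of horse 1 was the lowest. The other heart values lay in the range of lung and liver except heart of horse 3, which was below them, and the heart mean was 69.7% ± 3.83 (SD, n = 4) with that library and 71.5% ± 1.59 (SD, n = 3) without it.

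There were 4 groups of deep CpGs that stood out by depth or level, and they are described in turn. The first are loci whose depth followed the mitochondrial genome, and the second are loci deeper in 3 of the lung libraries. The third are large loci, several of which varied between libraries of a tissue. The fourth are loci whose level differed between tissues.

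The first group held 17 deep CpGs in 4 loci, at chr1:140072620-140072667 (3), chr21:44465537-44465588 (4), chr21:44472236-44472599 (7) and chr27:37571431-37571471 (3). Of the 92 loci with 3 or more deep CpGs, 5 had every deep CpG at the same distances as CpGs of the mitochondrial genome, and 4 of these also had the depth of the matched mitochondrial CpGs, by a limit of 0.9 to 1.1 on the median ratio that was chosen after the values were seen. The fifth, chr3:37296990-37297018, was read 15.8 times as deeply as its mitochondrial match and had a level of 91.8%, so that its match was in spacing alone. The largest match of any other of the 92 loci covered 75.0% of its deep CpGs. Loci with fewer than 3 deep CpGs were not compared in this way. The 17 CpGs matched 10 mitochondrial positions, of which 12811, 12838 and 12851 were each matched by 3 chromosomal CpGs.

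Depth at these loci was far higher in heart. At chr21:44472236-44472599 the mean relative depth was 294, 227, 240 and 350 in heart of horses 1 to 4, 14.7, 12.4, 31.4 and 47.5 in lung, and 22.3, 25 and 27.4 in liver of horses 1, 2 and 4. This mean joins CpGs of unlike depth. In the library labelled heart of horse 1, they had 576 to 579 from chr21:44472236 to chr21:44472296 and 81.5 to 82.7 from chr21:44472548 to chr21:44472599. At chr1:140072620-140072667 the mean relative depth was 273 to 421 in heart, 18.2 to 68.2 in lung and 27.4 to 35.04 in liver. At chr27:37571431-37571471 it was 58.2 to 87.2 in heart, 3.53 to 12.7 in lung and 5.53 to 7.65 in liver. Heart was clear of both other tissues at each locus, and lung of horses 3 and 4 was above lung of horses 1 and 2. Among the 161 loci, heart exceeded both other tissue means by 1.5 times or more at these 4 and at no other. A tissue with more mitochondrial genomes per cell and a sample with more mitochondrial DNA for another reason cannot be told apart in these data.

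The depths of the 17 CpGs and of their mitochondrial matches were near each other by the limit that chose these loci, so their ratio is a description only. Over 187 pairs of a CpG and a library, the depth of the chromosomal CpG divided by that of its mitochondrial match had a median of 0.996, and 78.6% of the ratios lay between 0.9 and 1.1. Matches of other positions left these limits by less, down to 0.844 at chr21:44465577 and up to 1.27 at chr21:44472599. Position 12862 was the largest exception. Its chromosomal matches at chr21:44465588 and chr21:44472548 had ratios down to 0.138 and 0.146 in the libraries where position 12862 was deep, and up to 0.993 and 0.978 elsewhere. Relative depth at position 12862 was 84.8 in the library labelled heart of horse 1, 69.8 in heart and 12.6 in lung of horse 3, against 381 and 573 in heart of horses 2 and 4, 22.6 to 83.5 in lung of horses 1, 2 and 4, and 37.0 to 49.9 in liver. The library labelled heart of horse 1 and heart of horse 3 were thus the lowest in heart and lung of horse 3 the lowest in lung. The authors' methods state that uniquely mapped reads were used. How reads were placed between the chromosomal and the mitochondrial copies was not tested.

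**Figure D2:**
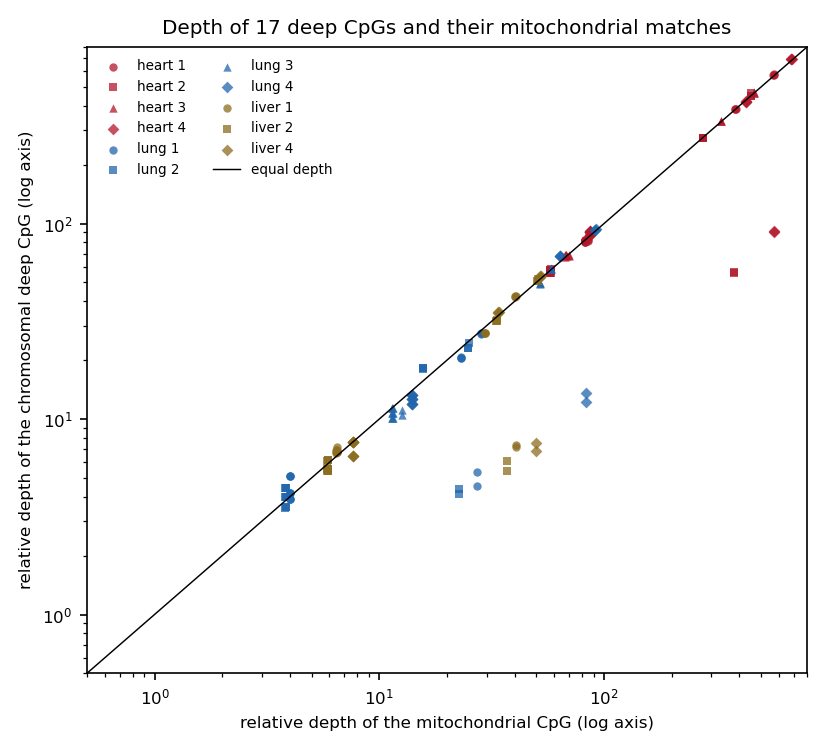
Relative depth of each of the 17 chromosomal deep CpGs (y axis, log scale) against that of its mitochondrial match (x axis, log scale) in each library, coloured by tissue and shaped by horse, with the line of equal depth. Most points lie near the line (median ratio 0.996), and those of mitochondrial position 12862 in 8 libraries lie well below it.

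Levels at the 17 CpGs were near 0 in every library, with a mean of 0.440% to 0.515% in heart, 1.11% to 2.91% in lung and 1.42% to 2.69% in liver. The mitochondrial genome as a whole had 0.336% to 0.373% in heart, 0.613% to 1.69% in lung and 0.904% to 1.20% in liver. The tissue with the highest depth had the lowest level at both. Position by position, chr21:44465588 had the highest mean level, 3.93% against 1.24% at its mitochondrial match, and chr27:37571431 the lowest, 0.281% against 2.20%.

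The second group was deeper in lung. At 32 loci with 82 deep CpGs on 7 chromosomes, the lung mean of relative depth was 1.72 to 2.04 times the higher of the heart and liver means, and 21 of the 32 belonged to the family of 22 loci above. Liver reached 1.5 times both other tissues at none. At chr1:67532005-67532013, the locus with the highest ratio (2.04), relative depth was 19.6, 17.3 and 16.4 in lung of horses 1 to 3 and 6.86 in lung of horse 4, against 5.90, 9.97, 6.56 and 4.65 in heart and 5.96, 6 and 10.2 in liver. At chr26:10119-10132 the lung values were 15.8, 14.3, 14.2 and 5.30, with heart at 4.07 to 7.42 and liver at 4.45 to 8.15. Thus 3 lung libraries were high and the fourth lay among the other tissues. The same held at all 32 loci: lung of horses 1 to 3 was above every heart and liver library, and lung of horse 4 was below the highest of them. The cause of this depth was not tested.

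Levels at these loci were close together in the 3 tissues. Over the 63 deep CpGs of the family, the mean level was 80.3% ± 0.154 (SD, n = 4) in heart, 80.9% ± 0.292 (SD, n = 4) in lung and 81.1% ± 0.406 (SD, n = 3) in liver, while mean relative depth was 7.05 ± 2.19, 15.5 ± 6.21 and 8.35 ± 2.28. At chr1:67532005-67532013 the mean levels over the deep CpGs were 59.5% to 62.5% in heart, 61.9% to 63.6% in lung and 61.9% to 62.2% in liver. Lung of horse 4 had 63.6% there at its lower depth. The family's locus means ran from a heart mean of 61.0% at chr28:80587-80595 to 96.8% at chr26:70593. Mean levels of its single deep CpGs over the libraries ran from 1.40% to 97.3%. A locus mean near 61.0% can thus average unlike CpGs and does not show that each was partly methylated. A further locus, chr9:35859826-35859854, was outside the family and not among the 32, and had relative depths of 24.8 to 30.1 in lung of horses 1 to 3, 7.93 in lung of horse 4, 8.69 to 9.63 in heart, and 18.1, 8.13 and 20.9 in liver of horses 1, 2 and 4. Its 2 CpGs, 28 bases apart, had mean levels of 85.4% and 0.561% in heart, 87.1% and 0.514% in lung and 84.2% and 0.450% in liver.

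**Figure D3:**
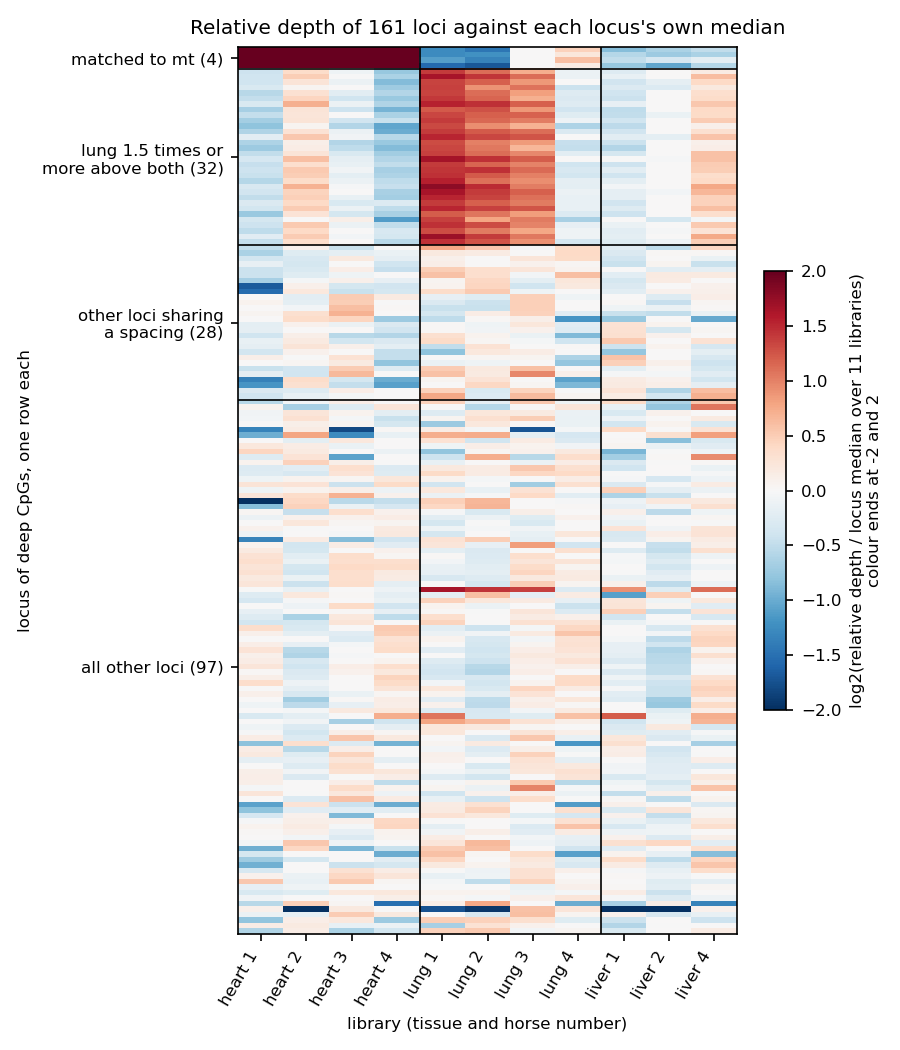
Relative depth of the 161 loci (rows) in the 11 libraries (columns), as log2 of the depth over the locus's own median, with colour ending at -2 and 2. The 4 loci matched to the mitochondrial genome are deepest in all 4 heart libraries, the 32 lung-high loci are deep in lung of horses 1 to 3 and not of horse 4, and single rows are low or high in a few libraries.

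In the third group, several of the largest loci differed between libraries of the same tissue. Over all 161 loci the median range of the locus level across libraries was 8.45 points, and it reached 20 points at 25 loci, or at 20 without the library labelled heart of horse 1. Of the 157 loci outside the first group, 47 had a depth in the deepest library at least 3 times that in the shallowest.

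At chr13:25947630-25948603, with 50 deep CpGs the largest locus, the mean level was 46.7% in the library labelled heart of horse 1, 88.9%, 88.3% and 77.6% in heart of horses 2 to 4, 83.6% to 90.8% in lung and 84.2% to 88.8% in liver. At chr13:27931297-27931765 (26 deep CpGs) the same library had 45.6% against 80.1% to 90.5% in the other 10, and at chr13:26386136-26386389 (12 deep CpGs) 43.4% against 79.2% to 91.9%. The same library was thus the lowest at these 3 loci, with no other library near it. Its relative depth was low there too, 4.16, 6.11 and 3.73, though lung of horse 4 was similarly low at 5.03, 5.92 and 4.52 with levels of 83.6%, 83.8% and 79.2%. Without that library, the range at the largest locus fell from 44.2 to 13.2 points. It was also the lowest at some smaller loci of this chromosome. Among them was the single deep CpG chr13:22942472, with 50.6% against 75.8% to 88.4% in the others.

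At chr1:159232706-159234207, with 38 deep CpGs, the level was 38.8% in heart and 39.9% in lung of horse 3 and 57.8% in the library labelled heart of horse 1, against 75.8% to 79.1% in the 8 others. Relative depth was 5.29, 5.61 and 7.33 in those 3 libraries and 18.1 to 24.4 in the others. The 3 libraries that were low in level were also low in depth, and they are the 3 that stood apart at mitochondrial position 12862. A second locus on the same chromosome, chr1:159435346-159435387, noticed after the values were seen, had 41.9% in heart and 38.5% in lung of horse 3, 61.2% in the library labelled heart of horse 1 and 61.3% to 77.6% elsewhere.

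Other large loci followed the horse number as well. At chr1:89946271-89946558 (13 deep CpGs), horse 2 had 47.7% in heart, 49.9% in lung and 45.6% in liver, while horse 1 had 21.4% in lung and 20.6% in liver and all other libraries lay between 24.8% and 32.6%. At the first positions listed for chromosome 31 (chr31:246-370, 14 deep CpGs), horse 2 had 86.8%, 88.8% and 87.5%, horse 1 had 73.2%, 71.7% and 69.6%, and horses 3 and 4 had 78.3% to 82.7%. Horse 2 was the highest in every tissue at both loci. At chr1:81071607-81072173 the 3 deepest CpGs of all, with median relative depths of 93.0, 93.1 and 97.1, lay beside 6 CpGs with 6.15 each. The locus level was 33.1% to 33.6% in horse 2, 45.2% to 46.0% in the libraries labelled horse 1, 42.1% and 46.1% in horse 3, and 51.5% to 57.6% in horse 4. With reads summed over the locus, where the 3 deepest CpGs dominate, the tissue means were 76.8% in heart, 79.8% in lung and 78.3% in liver.

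At chr1:69724475-69725070 (15 deep CpGs) the level was 61.5%, 66.0%, 62.3% and 74.2% in heart of horses 1 to 4, 77.4%, 68.8%, 69.3% and 77.6% in lung, and 76.3%, 68.2% and 77.5% in liver of horses 1, 2 and 4. Heart was below lung in each of the 4 horses and below liver in each of the 3, and horse 4 was the highest in every tissue, so that the ranges of the tissues overlapped. The first CpG, chr1:69724475, was not called with all libraries but was called for heart minus liver without heart of horse 4 (-29.2 points, adjusted p = 0.000547, against 5.78% of all common CpGs called) and without liver of horse 2 (-26.7 points, adjusted p = 0.00185, against 5.59%), by the quasi-likelihood F test described below.

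At other large loci the libraries were closer together or varied in another order. At chr21:48600648-48601260 (15 deep CpGs) all 11 libraries lay between 76.7% and 83.2%, at relative depths of 6.87 to 10.97. At chr13:23761116-23761279 (16 deep CpGs) the level was 50.01% to 50.9% in heart, 51.7% to 60.8% in lung and 44.4% to 53.4% in liver.

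**Figure D4:**
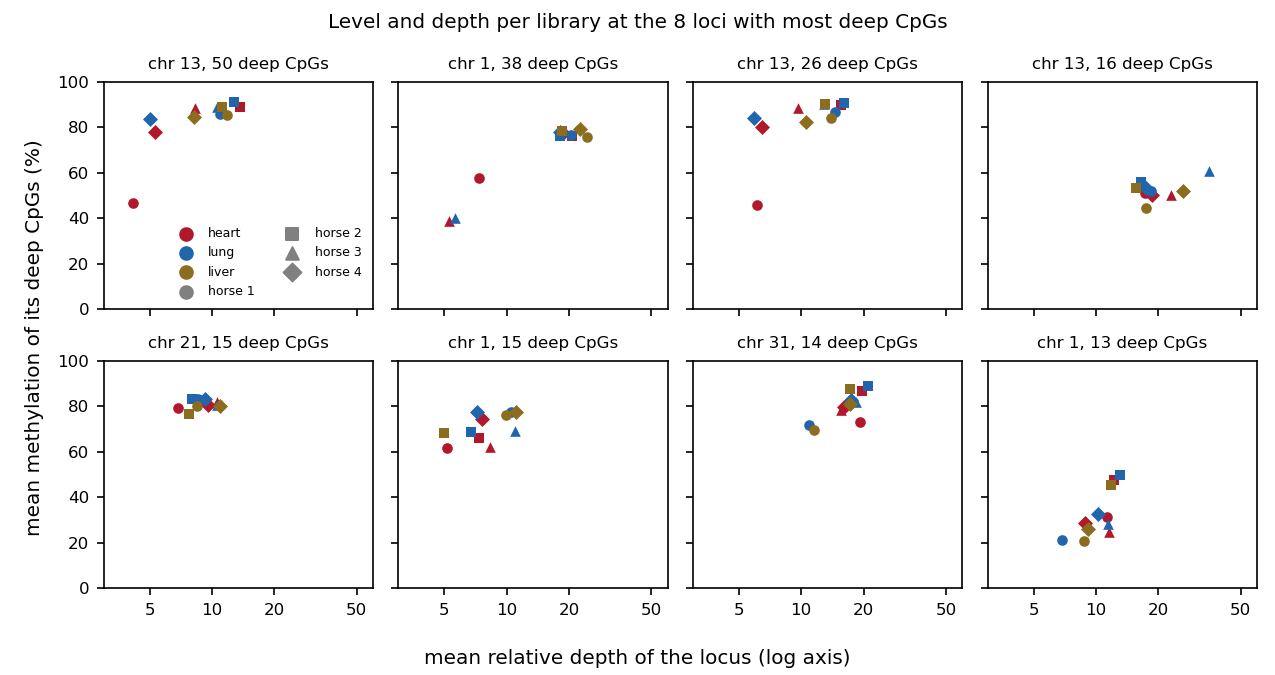
Mean level of the deep CpGs (y axis, percent) against mean relative depth (x axis, log scale) per library at the 8 loci with the most deep CpGs, coloured by tissue and shaped by horse. The library labelled heart of horse 1 lies alone at 46.7% and 45.6% at both largest chromosome 13 loci, and 3 libraries lie low in level and depth at the 38-CpG chromosome 1 locus.

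Depth alone varied at single loci without a like change in level. At chr26:783910 the relative depth was 6.52 to 9.79 in the library labelled heart of horse 1 and in all libraries of horses 3 and 4, and 0.733 to 1.94 in the other 5, and levels were 80.5% to 94.3%. At chr7:45230952-45230980 it was 0.680 in the library labelled heart of horse 1 and 5.37 to 12.4 in the other 10, with levels of 77.9% and 79.8% to 89.3%. At chr13:6789554-6789610 it was 22.5 and 24.9 in lung and liver of horse 1 but 8.62 in the library labelled heart of horse 1, with 16.1 to 17.7 in horse 4 and 8.64 to 10.7 in horses 2 and 3. At the first and the last of these, depth was alike within a horse apart from that library. Lung had the lowest mean relative depth of the tissues at chr12:4572765-4572822, where lung had 3.83 to 6.53, heart 3.78 to 7.41 and liver 4.90 to 9.04, and at chr12:2592514-2593035, where it had 4.33 to 6.90 against 4.81 to 8.20 and 5.33 to 9.94. Liver was lowest at chr5:65241131, with 4.4 to 5.58 against 6.17 to 9.96 in heart and 4.83 to 8.47 in lung. Liver and heart did not overlap at chr5:65241131, and the other ranges did.

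The fourth group was found by testing each CpG. A CpG was called when the quasi-likelihood F test over all 68147 common CpGs gave a Benjamini-Hochberg adjusted p below 0.01 and the difference, weighted by depth, was 25 percentage points or more. Between lung and heart, 2 of the 681 deep CpGs were called (0.294%), both higher in lung, against 3.12% of all common CpGs, of which 1.77% were higher in lung. Between lung and liver, 6 were called (0.881%, 5 higher and 1 lower in lung) against 4.11%, with 2.4% higher and 1.71% lower in lung. Between heart and liver, 7 were called (1.03%, 5 higher and 2 lower in heart) against 6.32%, with 3.19% higher and 3.13% lower in heart. The count was below the background share in each comparison. Median dispersion between libraries, in units of counting error, was 2.75, 2.29 and 2.50 at deep CpGs, for the comparisons in the order just given. Over all common CpGs it was 1.14, 1.13 and 1.12. This dispersion rises with depth when the spread in levels is the same. In levels the spread was smaller, with a median SD within a tissue of 3.43 points at deep CpGs against 6.32 points over all common CpGs. With the horse as a block in this test none of the 681 was called in any comparison, against 0% of all common CpGs, while 166, 85 and 126 deep CpGs had an unadjusted p below 0.05. edgeR with the same block called 2, 6 and 7 deep CpGs, against 3.05%, 3.51% and 4.98% of all common CpGs.

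The called deep CpGs lay at 5 loci on 3 chromosomes. The most strongly differing was chr9:30139923-30140373, where all 4 deep CpGs were lower in liver. Its mean level was 81.3%, 81.8%, 84.1% and 83.7% in heart of horses 1 to 4, 83.1%, 86.4%, 86.0% and 85.1% in lung, and 45.6%, 44.1% and 40.6% in liver of horses 1, 2 and 4. Liver was clear of all other libraries. At chr9:30139923 lung exceeded liver by 47.7 points (adjusted p = 6.13e-09) and heart exceeded liver by 45.5 points (adjusted p = 3.28e-07). At the other 3 CpGs the difference to liver was 34.3 to 44.7 points in lung and 31.9 to 43.5 points in heart. Relative depth was 5.28 to 8.62, and no tissue stood apart in it.

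Heart was the low tissue at a pair of loci a few kilobases away. At chr9:30146871 the level was 35.8%, 46.0%, 49.5% and 46.2% in heart, 63.2% to 74.6% in lung and 67.0% to 74.8% in liver. Lung exceeded heart by 27.7 points (adjusted p = 9.36e-05) and heart minus liver was -25.6 points (adjusted p = 0.000285). At chr9:30158544 it was 35.7% to 46.2% in heart, 64.4% to 72.8% in lung and 59.4% to 68.8% in liver, with differences of 29.3 points between lung and heart (adjusted p = 2.81e-05) and -26.3 points for heart minus liver (adjusted p = 0.000148). All 4 heart libraries were below all others at both CpGs. Each has a neighbour among the deep CpGs in the same locus with a span of 341 bases, at chr9:30147211 and chr9:30158204, and those had 80.3% and 80.8% in heart, 87.2% and 86.0% in lung, and 88.7% and 88.8% in liver. The less methylated CpG came first in one locus and last in the other. Without the library labelled heart of horse 1, the first of the pair fell below 25 points, at 23.4 points for lung minus heart and -21.3 points for heart minus liver, and left 1 deep CpG called between lung and heart (2.47% of all common CpGs) and 6 between heart and liver (5.67%). For heart minus liver the first also fell below 25 points without liver of horse 2 (-24.7 points) and the second without liver of horse 4 (-24.8 points). With limma on levels, only lung minus heart at the second remained called of the 4 differences.

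At chr13:6783098, a single deep CpG read 16.3 to 23.6 times the library median, liver was again low. The level was 83.8% to 89.1% in heart, 86.1% to 91.0% in lung and 54.5%, 48.8% and 49.5% in liver. Lung exceeded liver by 37.7 points (adjusted p = 4.86e-09) and heart exceeded liver by 34.5 points (adjusted p = 1.76e-06). Lung was the low tissue at chr12:23012089, with 69.4%, 53.7%, 60.7% and 67.5% against 93.3%, 88.2% and 94.3% in liver, a depth-weighted difference of -29.7 points (adjusted p = 8.71e-07), which limma on levels did not call (adjusted p = 0.0188). Heart lay between and more widely, at 65.7%, 74.6%, 73.0% and 89.4%. Over the 4 deep CpGs of that locus the mean was 67.1% ± 4.73 (SD, n = 4) in lung, 82.8% ± 5.03 (SD, n = 4) in heart and 88.5% ± 3.40 (SD, n = 3) in liver.

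Leaving out heart of horse 2 raised the count between lung and heart from 2 to 8, all higher in lung, against 2.71% of all common CpGs. The 6 added CpGs lay at chr13:25947630-25948603 and chr13:27931297-27931765, where the library labelled heart of horse 1 was low, with 26.6% to 40.9% at these CpGs. Over all 681 deep CpGs, called ones included, the median absolute difference was 2.62, 2.18 and 3.02 points in the 3 comparisons. Over all common CpGs it was 4.08, 4.17 and 4.60 points. Deeper sites have less counting error, which lowers absolute differences in itself, and its part was not tested. Lung was above heart at 537 deep CpGs (78.9%) and at 53.5% of all common CpGs. Without the library labelled heart of horse 1, it was above at 437 (64.2%) and at 51.0%.

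The deep CpGs weighed heavily in a mean methylation level that counts reads. They took 10.8%, 11.3%, 10.8% and 11.8% of the reads at common CpGs in heart of horses 1 to 4, 9.17%, 8.91%, 8.92% and 8.31% in lung, and 8.54%, 7.93% and 9.34% in liver of horses 1, 2 and 4, with 1% of the sites. All heart libraries were above all others. The 17 CpGs matched to the mitochondrial genome took 3.13% to 4.89% in heart, 0.184% to 0.732% in lung and 0.335% to 0.385% in liver. The other 664 deep CpGs took 6.42% to 8.12%, 7.58% to 8.96% and 7.56% to 8.95%, so that heart was no longer the highest.

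Weighted by reads, the mean level over the deep CpGs was 40.4%, 55.2%, 48.6% and 43.5% in heart, 74.6%, 76.5%, 70.7% and 69.2% in lung, and 71.8%, 73.2% and 72.4% in liver. The heart mean was 46.9% ± 6.48 (SD, n = 4), or 49.1% ± 5.89 (SD, n = 3) without the library labelled heart of horse 1. Over the 664 deep CpGs outside the first group, heart was at 67.8%, 76.3%, 72.6% and 73.8%, lung at 74.6% to 78.1% and liver at 74.7% to 76.7%, and the tissues overlapped.

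Over all common CpGs the read-weighted mean level was 64.6%, 67.8%, 66.7% and 65.6% in heart, 71.4%, 71.4%, 69.8% and 69.4% in lung, and 70.1%, 68.8% and 69.6% in liver. Heart was below every other library. Lung exceeded heart by 4.31 points (exact 2-sided permutation test, p = 0.0286, the smallest that 4 against 4 libraries can give, adjusted p = 0.0857 over 6 values), and heart minus liver was -3.31 points (exact p = 0.0571, the smallest for 4 against 3, adjusted p = 0.114). Neither passed 0.05 after adjustment. Without the 681 deep CpGs the heart values were 67.5%, 69.4%, 68.9% and 68.6%, lung 71.1%, 70.9%, 69.7% and 69.4%, and liver 69.9%, 68.4% and 69.3%. Lung then exceeded heart by 1.66 points (exact p = 0.0286, adjusted p = 0.0857). The ranges still did not overlap, but by a very small gap, from 69.419% in heart of horse 2 to 69.426% in lung of horse 4. Heart minus liver was -0.602 points with overlap (exact p = 0.400, adjusted p = 0.400). The difference of lung and liver was 1.00 point with and 1.06 points without the deep CpGs (adjusted p = 0.343 for both, exact permutation test).

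Most of the shift came with the 17 CpGs. Leaving out these alone gave 67.5%, 69.997%, 69.2% and 69.0% in heart, a difference of 1.84 points between lung and heart (exact p = 0.0571) and of -0.815 points between heart and liver (exact p = 0.343), and the ranges overlapped in both. Removing all deep CpGs raised the mean of heart libraries by 1.60 to 2.98 points, while lung and liver libraries moved by 0.502 points or less. Without the library labelled heart of horse 1, lung exceeded heart by 3.77 points with the deep CpGs and by 1.29 points without them. When each CpG counted once, lung exceeded heart by 0.689 points with the deep CpGs and by 0.666 points without them.

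**Figure D5:**
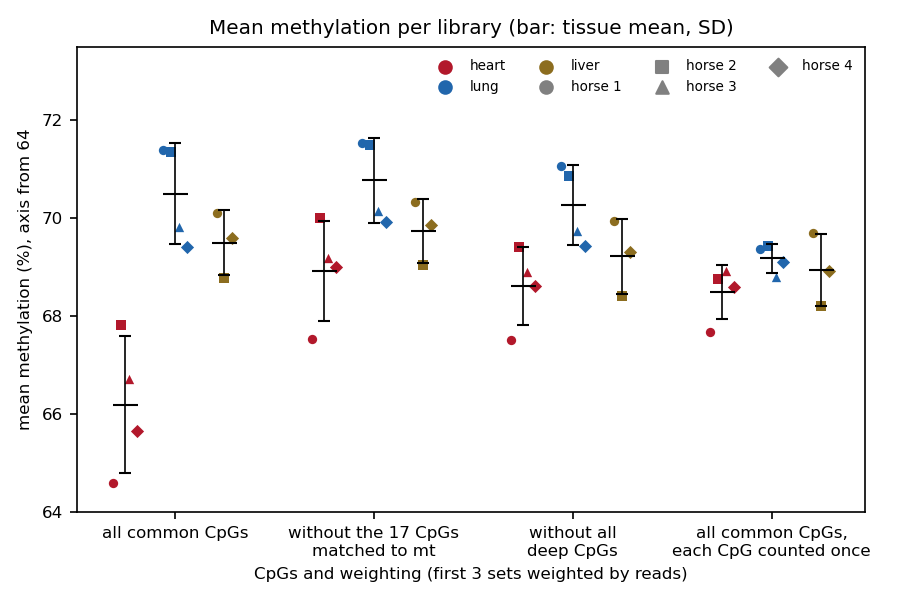
Mean methylation (y axis, percent, from 64) per library for all common CpGs weighted by reads, without the 17 CpGs matched to the mitochondrial genome, without all 681 deep CpGs, and for all common CpGs counted once each (x axis), with the tissue mean and SD as bars. Heart lies at 64.6% to 67.8% with all CpGs and at 67.5% to 69.4% without the deep CpGs, and lung and liver move by 0.502 points or less.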

How the data were processed

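The deposited files give, per the file headers, 1 line for each CpG cytosine and strand, with its coverage as a whole count of reads and 2 columns of percent values (C and T). According to the methods, the authors aligned quality-filtered reads to EquCab3.0 and used those mapped uniquely. The submitters' processing notes name FastQC and BSMAP, with no versions. Listed coverage ran from 5 to 65535 reads. The number of methylated reads was taken as the deposited count times the C percent, and came out whole (tolerance 0.05 points) for at least 99.8% of the lines of a library. Strands were summed. Reads are not molecules, since PCR copies were not marked, so depth covers counting error only.

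Each common CpG was tested by logistic regression on tissue, with the Pearson dispersion moderated by squeezeVar of limma 3.58.1 with a trend on log depth, kept at 1 or above, and a quasi-likelihood F test. The prior was fitted on CpGs with pooled levels of 2% to 98%. The trend was used because dispersion rose with depth, and the test was checked on simulated data. The simulated data kept the real depths and pooled levels, with the same spread setting for every CpG and no horse effect. That spread was a set value, not fitted to these data, so the check covers that setting only. There, 8.55%, 5.01% and 9.92% of unchanged deep CpGs of intermediate level had an unadjusted p below 0.05 in this test. The order is lung minus heart, lung minus liver and heart minus liver. The shares were 6.10%, 6.26% and 6.51% for the other common CpGs. No unchanged deep CpG was called. Thresholds were those of the study's methods, and the study's tissue pairs were compared without a block. Library means were compared by exact 2-sided permutation tests that exchanged libraries freely between tissues and did not use the pairing by horse. Software was Python 3.11.15 (numpy 2.4.6, scipy 1.17.1, pandas 2.3.3, networkx 3.6.1, matplotlib 3.10.9) and R 4.3.3 with edgeR 4.0.16.

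Samples with equal numbers are from one animal in the labels, so they are paired. Deviations from tissue means correlated at 0.154 to 0.251 between tissues of a horse, except at 0.0512 and 0.0519 for the library labelled heart of horse 1 with lung and liver of horse 1. Libraries of a tissue differed by more than sampling noise in all 15 pairs (chi-square per degree of freedom 1.43 to 2.15), so none was counted as a repeat. Loci named were the 8 with most deep CpGs, the 6 holding the deepest, up to 3 per comparison and direction holding called CpGs, and those with the highest and lowest depth ratios by tissue. Loci outside these rules were named after their values were seen. The members, families and comparisons were chosen with earlier results of these data known. A table of genes was at hand only for a different assembly, so neither genes nor sequences are given.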

Additional observations from a re-analysis of the deposited data

Results flagged for a closer look

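In groups of 4 libraries, a highest or lowest library was marked when its gap to the nearest of the others exceeded Dixon's 95% limit for its share of the group's range. This marked 13 of 144 groups. Many of the marked values are depths, and depth chose the deep CpGs and some of the named loci. The count is therefore a description and cannot be set against a chance rate. Liver, with 3 libraries, was not examined in this way, and no explanation was tested.

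Lung of horse 3 and of horse 4 were each apart 4 times. For lung of horse 4, the median relative depth over the deep CpGs was 7.78 against 10.05 to 10.2 in the other lung libraries, and the depth was 5.30 against 14.2 to 15.8 at chr26:10119-10132 and 4.33 against 6.65 to 6.90 at chr12:2592514-2593035. Its level at chr5:65241131 was 69.7% against 82.0% to 84.4%.

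Lung of horse 3 was apart at chr1:159232706-159234207, with a depth of 5.61 against 18.1 to 20.4 and a level of 39.9% against 75.9% to 77.8%. It was also apart at chr13:23761116-23761279, with a depth of 35.2 against 16.5 to 18.4, and at chr21:48600648-48601260, with a level of 80.7% against 83.0% to 83.2%.

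In heart, horse 3 had a depth of 32.6 against 21.5 to 22.5 at chr3:37296990-37297018 and a level of 45.8% against 42.0% to 42.2% at chr9:35859826-35859854. Heart of horse 2 had a depth of 7.26 against 10 to 10.04 in the others at chr9:30146871-30147211 and of 0.911 against 6.52 to 7.44 at chr26:783910. Lung of horse 2 had a depth of 30.1 against 35.2 to 36.0 at chr3:37296990-37297018.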

How the results depend on the processing

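No direction reversed under any alternative. Of the other values listed for the tissue comparisons and library means, 341 stayed close to the reported value or on the same side of the threshold and 47 moved. Of the differences at single called CpGs, 26 were lost over all alternatives, 15 of them with the horse as a block. Each call count was recomputed at other shares of kept sites: with 0.5% the counts were 1 for lung and heart, 1 for lung and liver and 2 for heart and liver, and with 2% they were 4, 11 and 17. These differ in the number of sites by construction. With limma on levels the counts were 1, 5 and 5, with the 1 call lower in lung than in liver and both calls lower in heart than in liver lost. The horse as a replicate block gave 0, 0 and 0, edgeR with the block gave 2, 6 and 7, and edgeR with the replicate block but without horse 1, chosen after seeing the data, gave 1 for lung against heart and 6 for heart against liver. The unblocked test had more residual degrees of freedom. Leaving out each library in turn gave 1 to 8 for lung against heart (1 without heart of horse 1, 8 without heart of horse 2), 6 to 6 and 6 to 8 for the others. At an adjusted p below 0.05, in edgeR without a block, with 20 reads in every library, and over all CpGs covered in the pair of tissues, all 15 differences at called CpGs stayed called. Limma on levels lost 4 of the 15, and capping reads at the library median lost 1 (chr9:30146871, heart minus liver). Leaving out heart of horse 1 lost 2, and leaving out liver of horse 2 or of horse 4 lost 1 each.

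The number of loci was 106 when members were joined within 10000 bases, 186 within 200 bases, 78 with 0.5% kept, 308 with 2% kept, 34 with 20 reads in all libraries (137 members) and 165 when chosen without the library labelled heart of horse 1 (619 of 681 members shared). With 0.5% kept the share of reads was 8.65% in heart, 5.67% in lung and 5.82% in liver, the read-weighted level 39.5% in heart and 71.5% in liver, and the unweighted level 71.0% in lung and 71.2% in liver. With 2% kept the shares were 14.8%, 13.5% and 12.7%, the read-weighted level 53.4% in heart and 73.4% in liver, and the unweighted level 73.9% in liver. With 20 reads required the share was 14.1% in heart and 7.73% in lung, and the read-weighted level 35.1% in heart and 70.9% in liver. Scaling depth by the library total gave mean relative depths of 11.1, 8.96 and 8.59 against 14.5, 11.9 and 10.96, another unit. Choosing by the mean over libraries gave a share of 9.32% in lung and a read-weighted level of 73.2% in liver. Without the 17 CpGs matched to the mitochondrial genome, an alternative chosen after seeing the data, heart had a share of 7.17%, a read-weighted level of 72.6% and a mean relative depth of 9.53, lung a share of 8.43% and levels of 74.4% unweighted and 76.2% read-weighted, and liver levels of 74.2% and 75.6%. The cause of these moves was not tested beyond what each alternative changes by construction. Depth was 11 to 28972 reads per deep CpG, with 3 or 4 animals per tissue.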
